A study of Mus musculus with 6 samples.

Results

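Transcripts that handle high-density lipoprotein (HDL) and reshape lipoproteins in plasma were examined in livers of mice with a hepatocyte deletion of Pex5. The genes were 9 chosen by name, and each was represented by its brightest probe set, by the mean of the 6 arrays, among those that the array annotation assigns to exactly 1 gene symbol. Of the 9, 8 were measured, out of 18193 genes in all, and Lipc, the hepatic lipase gene, was not analysed here.

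The KO group held 3 livers labelled L Pex5 -/- and the WT group 3 livers labelled WT, each on 1 Affymetrix mouse array. All 6 came from male mice aged 10 weeks, and the labels give both groups one mixed background that names Alb-Cre and Tac:[Sw]fBR. Pex5 is the receptor that brings matrix enzymes into peroxisomes. Alb-Cre is a recombinase under the albumin promoter, which acts in hepatocytes, so that endothelial, stellate and Kupffer cells are expected to keep the gene. The comparison asks what changes in the liver transcriptome when hepatocytes lose working peroxisomes. According to the labels the arrays are biological replicates, and no date or batch is recorded.

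HDL carries cholesterol from peripheral cells to the liver. ABCA1 loads cholesterol and phospholipid onto lipid-poor apolipoprotein A-I, ABCG1 adds cholesterol to the particle that forms, and LCAT esterifies that cholesterol so that the particle becomes spherical. PLTP and the lipases of the hepatic and endothelial type then remodel it, and SR-B1, the product of Scarb1, takes up its cholesteryl esters in hepatocytes. MTTP loads lipid onto apolipoprotein B to start very-low-density lipoprotein (VLDL), and LRP1 clears the remnants of triglyceride-rich particles.

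Levels are log2 values made with RMA, which gives each probe set 1 relative level per array, and differences are KO minus WT on that scale. Errors are given as the SD of 3 livers or as the SE from limma, and all adjusted p-values are from limma with Benjamini-Hochberg adjustment over all genes, called at 0.05. Pex5 itself stood at 9.22 ± 0.11 in KO and 9.04 ± 0.14 in WT livers (SD, n = 3 each), a difference of 0.18 ± 0.11 (SE, adjusted p = 0.262), and whether its probe set covers the deleted part is not given in the sources used here. The hepatocyte markers Alb and Ttr were near the top of the scale in both groups, at 14.71 and 14.36 in KO and 14.56 and 14.29 in WT livers. The bacterial control transcripts added to the samples averaged 9.29 to 9.40 on the KO arrays and 9.81 to 9.91 on the WT arrays. When the arrays were centred on these controls, the median difference of all genes moved up by 0.51, to 0.46. A direction given below is thus one relative to most other genes on the deposited scale.

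Scarb1, Lrp1, Lcat and Mttp were lower in KO livers, Abcg1 was higher, and Abca1, Pltp and Lipg did not pass. On the scale of the bacterial controls the lower call remained for Scarb1 alone, Mttp stood at 0.03, and Abca1 passed as higher beside Abcg1. Of all 18193 genes 12970 were higher on that scale and 409 lower (73.5% called). The 5 calls among 8 genes stand beside 24% of all 18193 genes called in either direction, 14.2% as higher and 9.75% as lower. All 8 lay above background, and a fit limited to the 12042 genes above background called 34.9%. The median difference of the 8 genes was -0.44, against -0.05 over all genes. The KO arrays lay apart from the WT arrays for 5 of the 8, as they did for 44.8% of all genes, 4 of them below (22.6% of all genes) and 1 above (22.1%). Leaving out KO replicate 1 lowered the share of all genes called to 14.2%, and leaving out KO replicate 2 to 13.1%. The 4 lower calls were kept when any 1 of the 6 arrays was left out, and the higher call of Abcg1 was kept in 1 of those 6 fits.

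**Figure D1:**
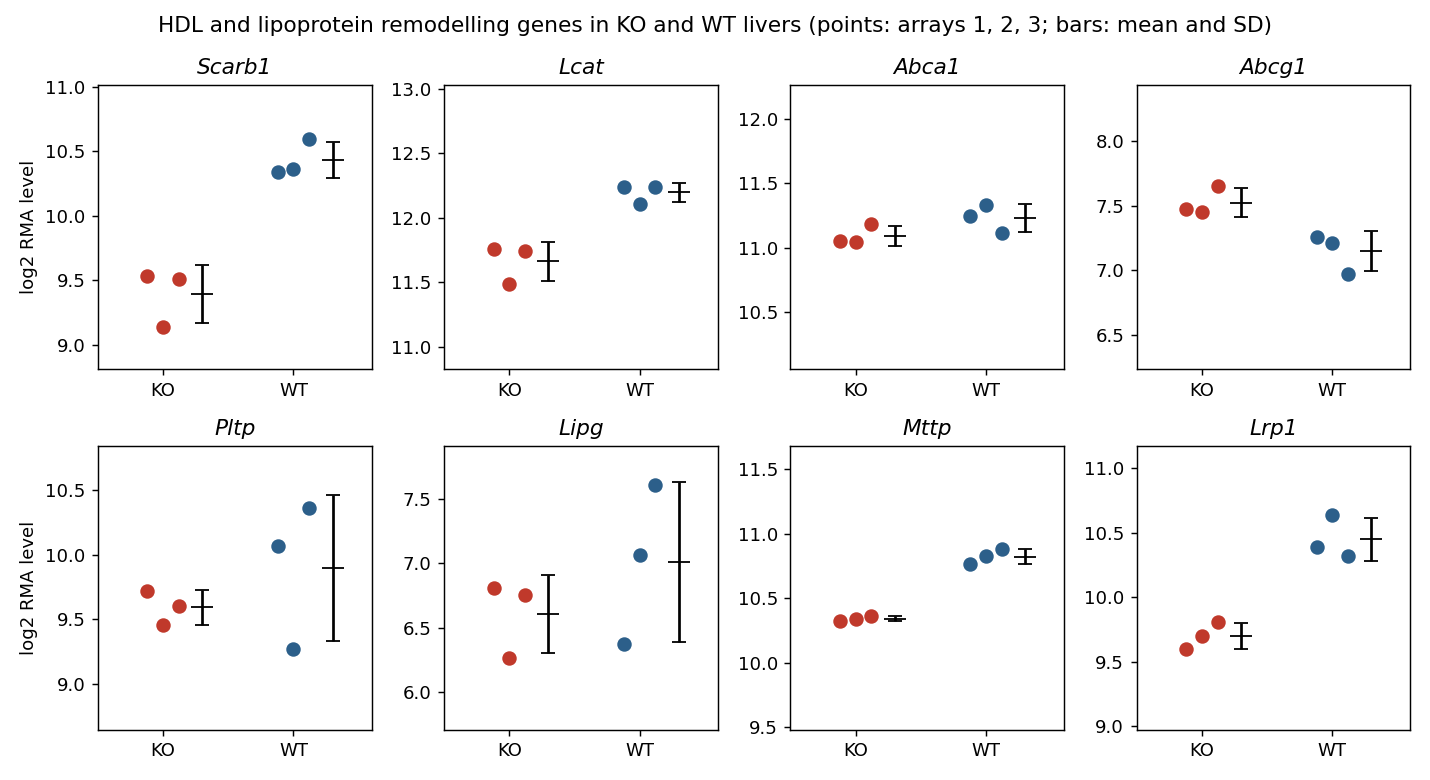
Log2 RMA level (y axis, a span of equal width in each panel) of the 8 genes in 3 KO and 3 WT livers, with points for single arrays and bars for mean and SD. KO and WT points are apart for Scarb1, Lcat, Abcg1, Mttp and Lrp1 and overlap for Abca1, Pltp and Lipg.

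Uptake of HDL lipid was represented by Scarb1, the receptor for selective uptake of cholesteryl esters. Scarb1 stood at 9.54, 9.14 and 9.51 in KO livers, against 10.34, 10.36 and 10.60 in WT livers. Every KO array lay below every WT array, with KO replicate 2 the lowest. The difference was -1.04 ± 0.14 (SE, 95% interval -1.35 to -0.73, adjusted p = 0.00144), which is 2.06-fold lower. Its size exceeded that of 95.3% of all genes. The gene has 3 probe sets, and the other two differed by -0.97 and -0.99 and passed as well in a fit over all 34945 probe sets with 1 symbol, of which 19.9% passed. Centred on the bacterial controls, Scarb1 still passed as lower, by 0.53 (adjusted p = 0.0113). The genes whose levels followed Scarb1 most closely over the 6 arrays were Madd, Mtarc2 and Lamp2, with Pearson r of 0.998, 0.997 and 0.996. These points share the split between groups, and 1143 of 12041 genes above background reached an r over 0.9.

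Esterification of HDL cholesterol was represented by Lcat. Its levels were 11.76, 11.49 and 11.74 in KO livers, against 12.24, 12.11 and 12.24 in WT livers. The groups did not overlap, and KO replicate 2 was again the lowest array. The difference of -0.53 ± 0.11 (SE, 95% interval -0.78 to -0.29, adjusted p = 0.00967) is 1.45-fold lower. Lcat has 1 probe set with 1 symbol, so no other probe set can be set beside it. Centred on the bacterial controls, its difference was -0.02 (adjusted p = 0.874).

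The cholesterol exporters differed in their calls. Abca1 stood at 11.05, 11.04 and 11.18 in KO livers, against 11.25, 11.33 and 11.12 in WT livers. The groups overlapped, since KO replicate 3 lay above WT replicate 3. The difference was -0.14 ± 0.10 (SE, 95% interval -0.36 to 0.08, adjusted p = 0.321). Its other two probe sets, which read dimmer, differed by -0.25 and -0.52, and the last of these narrowly missed the threshold (adjusted p = 0.0542 in the fit over probe sets). Centred on the bacterial controls, Abca1 differed by 0.37 and passed as higher (adjusted p = 0.022).

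Abcg1 stood at 7.48, 7.45 and 7.65 in KO livers, against 7.26, 7.21 and 6.97 in WT livers. The groups did not overlap, and WT replicate 3 was the lowest array. The difference of 0.38 ± 0.11 (SE, 95% interval 0.12 to 0.64, adjusted p = 0.0438) is 1.30-fold higher. This call lies at the edge of the threshold: the adjusted p ran from 0.000649 to 0.151 over 15 alternatives and was under 0.05 in 6 of them. It was lost without WT replicate 2 (0.0695), WT replicate 3 (0.0851), KO replicate 1 (0.10), KO replicate 2 (0.0888) or KO replicate 3 (0.13). The other probe set of Abcg1 stood at 4.92 in KO and 4.93 in WT livers, close to the background of 4.90 set from olfactory receptor genes, and differed by -0.02. In the fit over probe sets, which adjusts over more tests, the brighter one had an adjusted p of 0.0506.

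Exchange of phospholipid between lipoproteins was represented by Pltp. It stood at 9.72, 9.45 and 9.60 in KO livers, against 10.07, 9.27 and 10.36 in WT livers. WT replicate 2 lay below all KO arrays, while the other two WT arrays lay above them. The difference was -0.31 ± 0.25 (SE, 95% interval -0.89 to 0.27, adjusted p = 0.399), and 0.21 on the scale of the bacterial controls. Without WT replicate 2 it was -0.62 and passed (adjusted p = 0.0233), and without WT replicate 3 it was -0.07. The second Pltp probe set showed the same low array, at 7.76 in WT replicate 2 against 8.86 and 8.94 in WT replicates 1 and 3. The SD over the WT livers was 0.57, larger than that of 97.3% of genes above background, against 0.13 over the KO livers.

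Lipg encodes endothelial lipase, a phospholipase that acts on HDL. Its levels were 6.81, 6.26 and 6.76 in KO livers, against 6.37, 7.06 and 7.61 in WT livers. WT replicate 1 lay among the KO arrays, and the other two WT arrays lay above all of them. The difference was -0.40 ± 0.29 (SE, 95% interval -1.08 to 0.27, adjusted p = 0.343), and 0.11 on the scale of the bacterial controls. It was -0.72 without WT replicate 1 (adjusted p = 0.0545) and -0.11 without WT replicate 3. All 3 Lipg probe sets were lowest in WT replicate 1 and highest in WT replicate 3 among the WT arrays. The SD over the WT livers, 0.62, was larger than that of 97.9% of genes above background. The SEs of Pltp and Lipg were thus the widest among the 8 genes.

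Assembly of apolipoprotein B particles was represented by Mttp, the lipid-transferring subunit of the microsomal triglyceride transfer protein. Mttp stood at 10.32, 10.34 and 10.36 in KO livers, against 10.77, 10.83 and 10.88 in WT livers. The 2 groups were tight and did not overlap. The difference of -0.48 ± 0.08 (SE, 95% interval -0.68 to -0.29, adjusted p = 0.00538) is 1.40-fold lower. Its second probe set differed by -0.48 as well (adjusted p = 0.0155 in the fit over probe sets). The sign turned on the scale of the bacterial controls, to 0.03 (adjusted p = 0.779), so the fall of Mttp is one relative to most other genes.

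Remnant clearance was represented by Lrp1, a large endocytic receptor of hepatocytes that macrophages and fibroblasts carry too. It stood at 9.60, 9.70 and 9.81 in KO livers, against 10.39, 10.64 and 10.32 in WT livers. The groups lay apart, and the gap between the highest KO and the lowest WT array was wider than the range within either group. The difference of -0.75 ± 0.11 (SE, 95% interval -1.01 to -0.48, adjusted p = 0.00306) is 1.68-fold lower. Its second, dimmer probe set went the other way without passing, at 6.11 in KO and 5.99 in WT livers, with WT replicate 3 at 5.25 the lowest array. The mean of both probe sets differed by -0.32 and did not pass (adjusted p = 0.254), and centring on the bacterial controls left -0.23 (adjusted p = 0.147). The genes closest to Lrp1 over the 6 arrays were Fbxo9, Lama3 and Ngef, each with a Pearson r of 0.998 or 0.999, and 803 genes reached an r over 0.9.

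In order of their differences the genes ran Scarb1, Lrp1, Lcat, Mttp, Lipg, Pltp, Abca1 and Abcg1. The 95% intervals of each pair of neighbours in this order overlapped, except for those of Abca1 and Abcg1, and differences between genes were not tested. Of the 18 probe sets of the 8 genes 7 passed as lower, against 7.93% of all probe sets called as lower (19.9% in either direction), and 16 had a difference below 0, as did 56.7% of all probe sets.

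**Figure D2:**
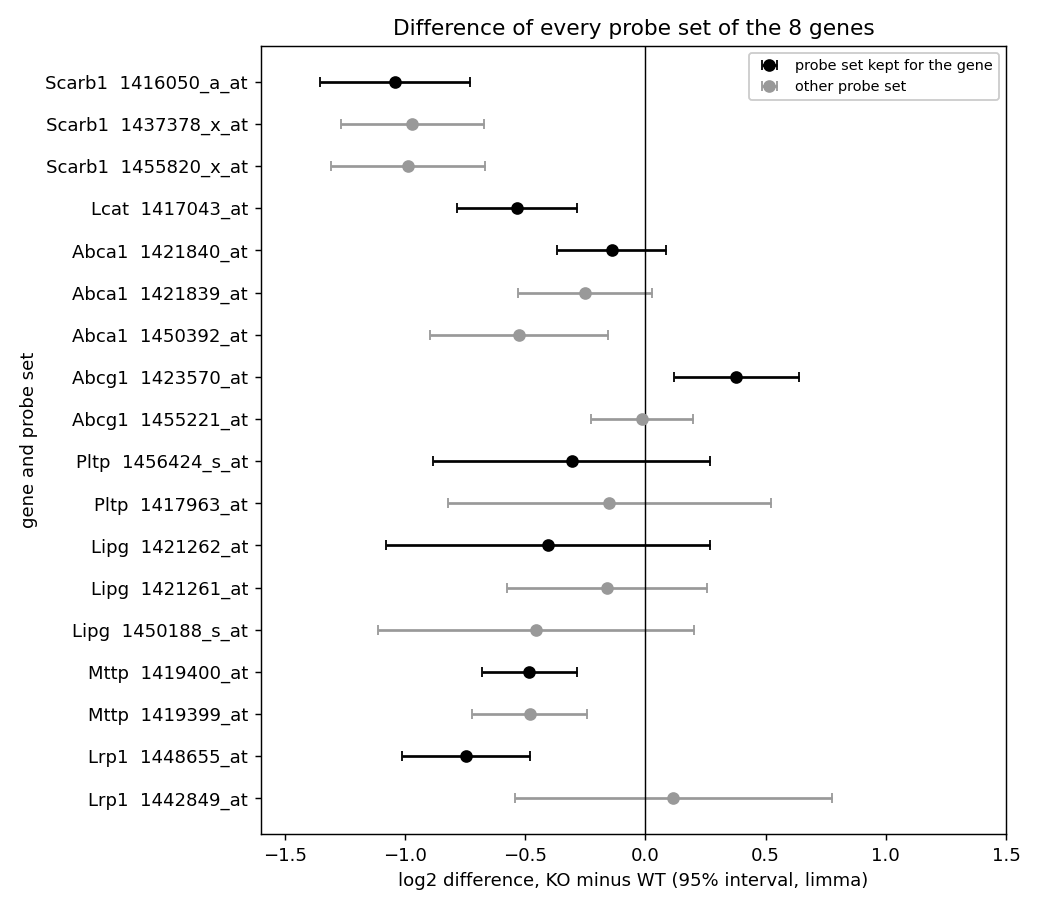
Log2 difference, KO minus WT, with limma's 95% interval (x axis) for all 18 probe sets of the 8 genes, with the probe set kept for each gene in black and the others in grey. The 3 probe sets of Scarb1 and both of Mttp lie left of 0 with their whole intervals, while the 2 probe sets of Lrp1 lie on opposite sides.

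**Figure D3:**
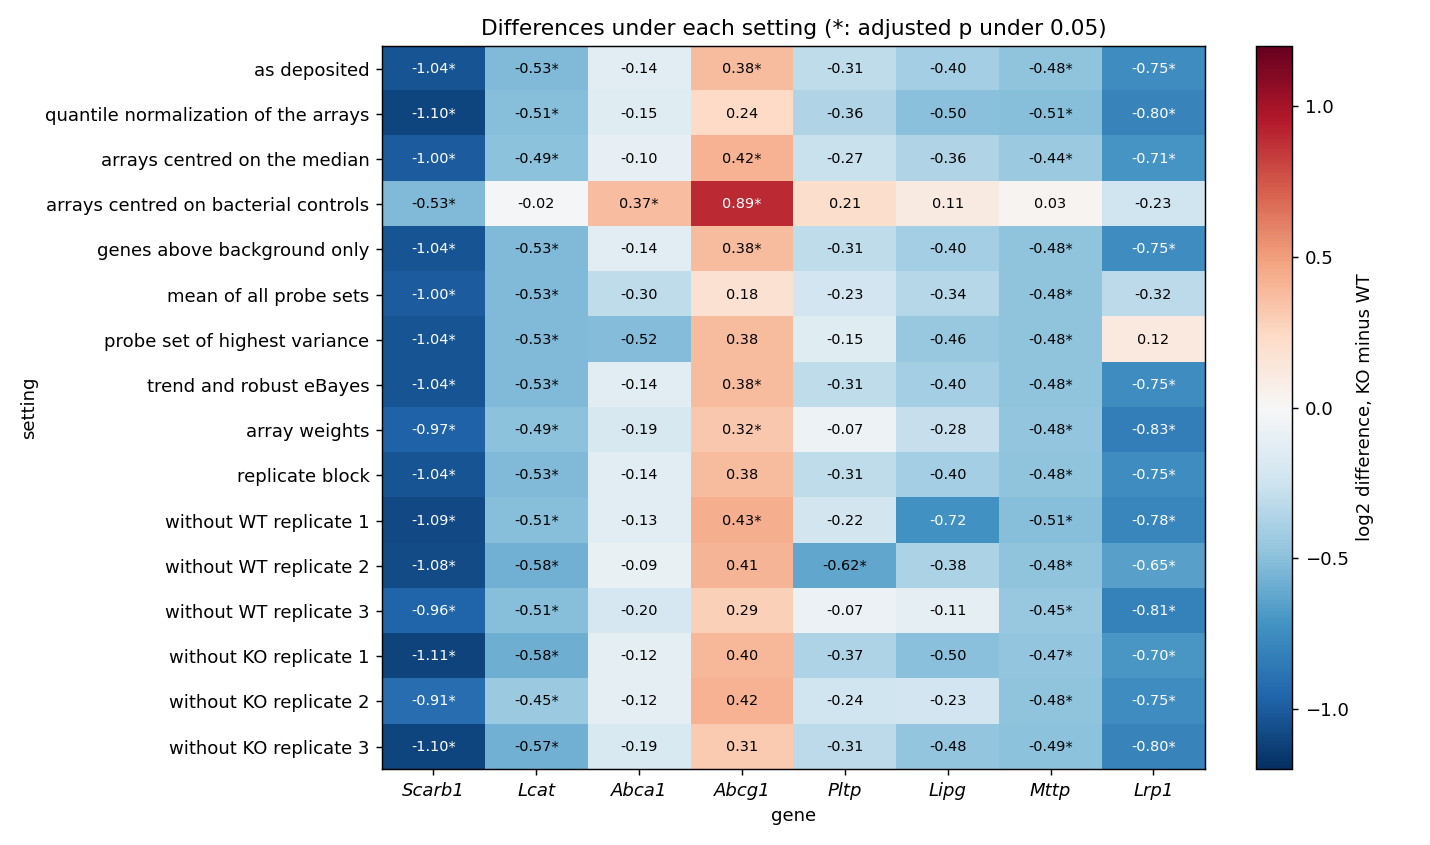
Log2 difference, KO minus WT, of each gene (columns) as deposited and under 15 other settings (rows), with an asterisk for an adjusted p under 0.05 and colour for the size. Scarb1 is negative and called in every row, and the row centred on bacterial controls has the most positive values.

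The promoters of 5 of the 8 genes were taken from RefSeq's table for GRCm38.p6, and those of Scarb1, Abcg1 and Lipg were not examined here. The 150 bases before the annotated start are shown for the 3 of the 5 that were lower. They are shown also for Abca1, whose promoter is known to bind the oxysterol receptor LXR. Capitals mark matches, on either strand, to 4 motifs: GGTTAC followed after 4 bases by GGTCA, a form of the LXR element, GGGCGG, the GC box, TATAAA, the TATA box, and CCAAT. The windows lie on the minus strand and are written 5′ to 3′ in the direction of the gene.
Mttp, chr3:138143419-138143568: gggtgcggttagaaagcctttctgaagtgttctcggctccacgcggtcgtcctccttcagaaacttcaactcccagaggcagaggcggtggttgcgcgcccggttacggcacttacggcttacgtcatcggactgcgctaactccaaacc
Lcat, chr8:105943403-105943552: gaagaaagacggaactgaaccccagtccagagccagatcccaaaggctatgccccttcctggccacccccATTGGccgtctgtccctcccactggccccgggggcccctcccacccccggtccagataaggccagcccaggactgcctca
Lrp1, chr10:127621149-127621298: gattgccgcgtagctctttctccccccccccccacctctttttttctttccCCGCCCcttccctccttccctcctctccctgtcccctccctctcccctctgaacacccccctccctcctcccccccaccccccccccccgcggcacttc
Abca1, chr4:53159896-53160045: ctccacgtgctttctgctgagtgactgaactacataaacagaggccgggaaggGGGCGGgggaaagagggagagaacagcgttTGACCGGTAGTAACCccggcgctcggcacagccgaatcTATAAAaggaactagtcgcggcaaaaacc
The Abca1 window held the LXR form, which begins 67 bases before the start, a GC box and a TATA box. The LXR form was found in 8 of 32851 windows of this length (0.0244%), the GC box in 28.6%, the TATA box in 7.57% and CCAAT in 24.5%. Only this 1 form of the LXR element was searched, and other forms were not searched in any window. Abca1 was shown because its promoter is known to bind LXR, so its match is not a finding of this search. The low share of windows with this 1 form is no measure of LXR binding in other genes. Control by LXR was not tested. Lcat held a CCAAT box on the opposite strand and Lrp1 a GC box, and the Mttp window held none of the 4 motifs. The 3 windows of lower genes thus shared no motif of these. All 5 promoters examined lay above the median G and C share of 54% over all windows, whether the gene was lower (58.7% for Mttp, 66% for Lcat, 68.7% for Lrp1) or did not pass (56% for Abca1, 61.3% for Pltp).

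Around these genes, 10 of 20 measured apolipoproteins, carriers and enzymes of HDL were lower and 2 were higher (60% called, against 24% of all genes), with a median difference of -0.26. All 20 lay above background, and the fit limited to genes above background called 34.9%. The largest fall was that of Apom, the HDL carrier of sphingosine 1-phosphate, at 8.17, 8.73 and 8.15 in KO livers against 12.20, 12.10 and 12.16 in WT livers (-3.80 ± 0.16, adjusted p = 1.04e-05). Saa1 and Saa2, acute phase apolipoproteins of closely similar sequence that ride on HDL, were lower (-3.39 ± 0.54 and -3.20 ± 0.69), with WT replicate 3 well below the other WT arrays in both, and Saa2 missed the threshold without KO replicate 2 (adjusted p = 0.056) and with trend and robust eBayes (0.066). Pla2g7, which hydrolyses oxidised phospholipids on lipoproteins, was higher (1.94 ± 0.23). Pdzk1, the scaffold that holds SR-B1 at the hepatocyte surface, was singled out after its values were seen. It stood at 8.83, 8.55 and 8.61 in KO livers, against 9.51, 9.41 and 9.73 in WT livers, which is 1.85-fold lower (-0.89 ± 0.12, adjusted p = 0.00183). The main HDL apolipoproteins, Apoa1 and Apoa2, differed by -0.10 and 0.18 and did not pass, with levels near the top of the scale. Apoh, among the 10 lower genes, is named here for its unstable call (adjusted p = 0.0267), kept in 1 of the 6 fits that leave out 1 array. On the scale of the bacterial controls 9 of these 20 were higher and 8 lower, against 12970 higher and 409 lower of all 18193 genes.

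Among regulators and anchors of the lipases 3 of 14 were higher and 2 lower (35.7% called, median -0.06). This share is near the 34.9% called in the fit limited to genes above background. Lpl, which hydrolyses triglyceride in circulating particles and is scarce in adult hepatocytes, stood at 11.54, 11.62 and 11.42 in KO livers against 9.63, 8.50 and 7.99 in WT livers (2.81 ± 0.36, adjusted p = 0.00128). Its inhibitor Angptl4 was higher too (1.16 ± 0.20), though not when its probe sets were averaged (adjusted p = 0.0615), while Lmf1, a chaperone that lipases need to fold, was lower (-0.67 ± 0.09). Apoa5, an activator of Lpl action, passed narrowly as lower (-0.57 ± 0.16, adjusted p = 0.0385) and did not pass when any array other than KO replicate 3 was left out (0.0569 to 0.137), which left 1 lower gene in the list. The remaining higher gene, Sdc1, is named here for its narrow call (0.46 ± 0.14, adjusted p = 0.0472). That call was kept in 1 of the 6 fits that leave out 1 array and was lost when its probe sets were averaged (0.326). On the scale of the bacterial controls 10 of these 14 were higher and 0 lower by limma (0 at an unadjusted p under 0.05), so that neither Lmf1 (-0.16) nor Apoa5 (-0.06) passed there. Of all 18193 genes 12970 were higher and 409 lower on that scale.

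In the list of VLDL assembly and secretion 4 of 20 genes were lower and 2 higher (median -0.16), a share called of 30% that is near the 24% of all genes. Surf4, a cargo receptor that moves lipoproteins out of the endoplasmic reticulum, was lower by 0.78 ± 0.11 and Cideb, a lipid droplet protein that takes part in VLDL lipidation, by 0.66 ± 0.12 (SE). The other lower genes, Mia2 and Sort1, are named here for their less stable calls. Mia2 (adjusted p = 0.0493) was kept in 1 of the 6 fits that leave out 1 array. Sort1 (adjusted p = 0.014) missed the threshold without KO replicate 1 (0.0639). Kif5b, a kinesin heavy chain, passed narrowly as higher (0.55 ± 0.17, adjusted p = 0.0462). It did not pass when any array other than WT replicate 2 was left out (0.0937 to 0.128), which left 1 higher gene in the list, nor with quantile normalization (0.0956), the probe set of highest variance (0.0562) or array weights (0.0854). Cidec, which enlarges lipid droplets, passed as higher, but its mean of 4.87 in KO livers and all 3 WT arrays lay below background. Apob, the structural protein of VLDL, differed by -0.07, and P4hb, the partner subunit of MTTP, by -0.18, and neither passed; these were chosen for their tie to Mttp after their values were seen. Set against the bacterial controls, 11 of these 20 were higher and 0 lower by limma (1 at an unadjusted p under 0.05), with Surf4 at -0.26 and Cideb at -0.14. Over the whole array 12970 of 18193 genes were higher there and 409 lower.

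Of 15 other receptors of low-density lipoprotein and remnants with their regulators, 2 were higher and 2 lower (median -0.24), and this share of 26.7% is near the 24% of all genes. The higher ones were Cd36, a fatty acid translocase and scavenger receptor (4.92 ± 0.34, adjusted p = 6.91e-05), and Vldlr, the VLDL receptor. Vldlr stood at 8.88, 9.53 and 9.02 in KO livers against 6.30, 3.29 and 4.84 in WT livers, of which the last 2 lay below background, which leaves the size of the rise undetermined. The lower calls were those of Hsp90b1, a chaperone of the endoplasmic reticulum (-0.59 ± 0.14, adjusted p = 0.0215), and Lrp5, a Wnt coreceptor of the LDL receptor family (-0.52 ± 0.14, adjusted p = 0.0325). Hsp90b1 did not pass without KO replicate 1 (0.0834) or KO replicate 2 (0.066), nor Lrp5 without KO replicate 1 (0.0969), KO replicate 2 (0.116) or KO replicate 3 (0.0606), so the lower count went to 0, 0 and 1. On the scale of the bacterial controls 8 of these 15 were higher and 0 lower by limma (0 at an unadjusted p under 0.05), with Hsp90b1 at -0.07 and Lrp5 at -0.01. Among all 18193 genes 12970 were higher there and 409 lower.

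Genes of intracellular and biliary cholesterol traffic were higher in 6 of 20 and lower in 3 (45% called, median -0.05). This stands beside 24% of all genes called, and 34.9% in the fit limited to genes above background. The higher count was 4 without WT replicate 2, KO replicate 2 or KO replicate 3. Higher were Gramd1c, of a family that moves cholesterol from the plasma membrane (1.68 ± 0.29), Cav1, the coat protein of caveolae (0.93 ± 0.22), and Nceh1, a cholesteryl ester hydrolase (0.80 ± 0.12). Cav1 missed the threshold without WT replicate 2 (adjusted p = 0.0555), KO replicate 2 (0.057) or KO replicate 3 (0.0568). Npc2, also among the higher genes, is named here for its narrow call (adjusted p = 0.0495), kept in 1 of the 6 fits that leave out 1 array. Its probe set of highest variance passed as lower (-0.46, adjusted p = 0.0217). Abca6, a relative of Abca1, was lower (-1.06 ± 0.14). In the list of LXR, its partner RXR and their targets, which contains Abca1, Abcg1, Pltp and Lpl as well, 4 of 18 were higher and 2 lower (33.3% called, median -0.10). The fit limited to genes above background called 34.9%. The lower count was 5 without WT replicate 2 and 1 without KO replicate 1 or KO replicate 2. Besides Lpl, the higher ones included Lpcat3, which remodels phospholipids (0.68 ± 0.13), and Nr1h4, the bile acid receptor FXR (0.66 ± 0.12), whereas Srebf1, a direct LXR target that drives lipogenic genes, was lower (-1.13 ± 0.19). Nr1h3, which encodes LXR alpha and was chosen after its values were seen, differed by -0.17 and did not pass (adjusted p = 0.197). Against the bacterial controls 13 of the 20 traffic genes were higher and 1 lower, and 10 of the 18 LXR genes were higher and 1 lower. The counts over all 18193 genes were 12970 higher and 409 lower there.

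**Figure D4:**
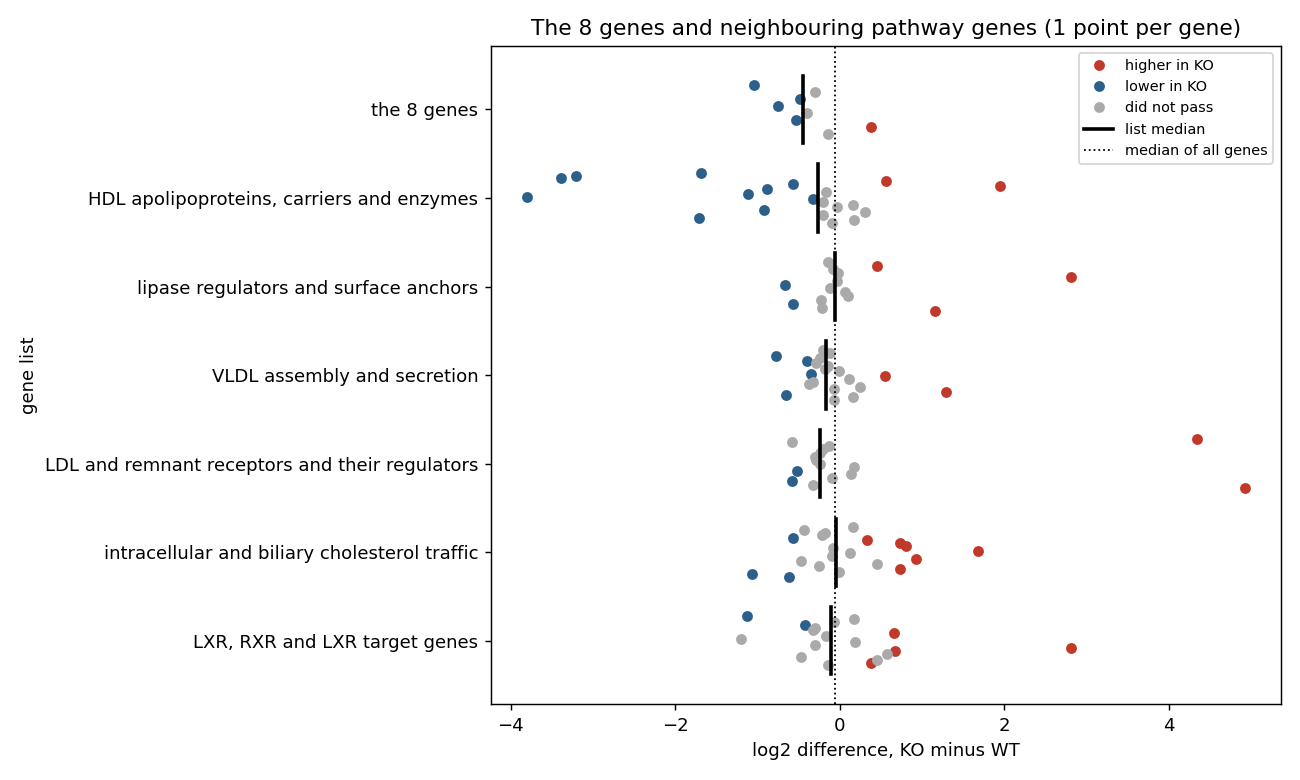
Log2 difference, KO minus WT (x axis), of each gene in the list of 8 and in 6 neighbouring lists, coloured by call, with a black bar at the list median and a dotted line at the median of all genes (-0.05). The HDL list spreads furthest to the left, and single higher genes (Lpl, Cd36, Vldlr) lie far to the right of their lists.

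Abca1, Abcg1, Pltp, Lrp1 and Lipg are also transcribed outside hepatocytes, so markers of other liver cells were read on the same arrays. Fewer cells of a type and less RNA per cell cannot be told apart in whole liver. Summed linear levels of 12 markers of sinusoidal endothelium, where Lipg is made, ran from 3257 to 3603 in KO livers and from 4093 to 4583 in WT livers, with 6 markers lower and 1, Lyve1, higher, and with 0 below background on all arrays. The rise of Lyve1, by 2.06, was the largest change in that list, whose lowest difference was -0.59, so the endothelial markers did not move as 1. For 10 stellate cell markers the sums ran from 4276 to 4852 in KO and from 5318 to 5708 in WT livers, with 2 lower, Reln and Dcn. The groups did not overlap in either sum. The 18 Kupffer cell and macrophage markers summed to 5828 to 7691 in KO livers and to 4395 to 9606 in WT livers, which overlap, with WT replicate 3 the lowest array. Among them Gpnmb was higher, 1 lay below background on all arrays, and the defining markers Clec4f and Vsig4 differed by -0.22 and -0.09. For 5 cholangiocyte markers the sums were 132 to 143 in KO and 151 to 183 in WT livers, with Krt19 lower and 2 below background on all arrays. For 7 lymphocyte markers the sums were 199 to 254 in KO and 215 to 283 in WT livers, with 0 called by limma (0 at an unadjusted p under 0.05) and 2 below background on all arrays. The 9 hepatocyte markers summed to 133921 to 137222 in KO livers and to 147062 to 149418 in WT livers, with Serpina1c, Fgb and Arg1 lower. These sums are on the deposited scale. The ratio of the KO to the WT mean was 0.91 for hepatocyte, 0.80 for endothelial, 0.83 for stellate and 0.80 for cholangiocyte markers. The scale of the bacterial controls adds 0.51 to every log2 difference, which is more than any of these falls. The falls of these sums are thus relative to most other genes. The hepatocyte sum fell although the median difference of its 9 markers was 0.07, against -0.05 over all genes. Of these 9 markers 6 did not pass, with differences of -0.10 to 0.22, so hepatocyte markers did not fall as a set. The part of these cell types in the differences of the 8 genes was not tested.

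**Figure D5:**
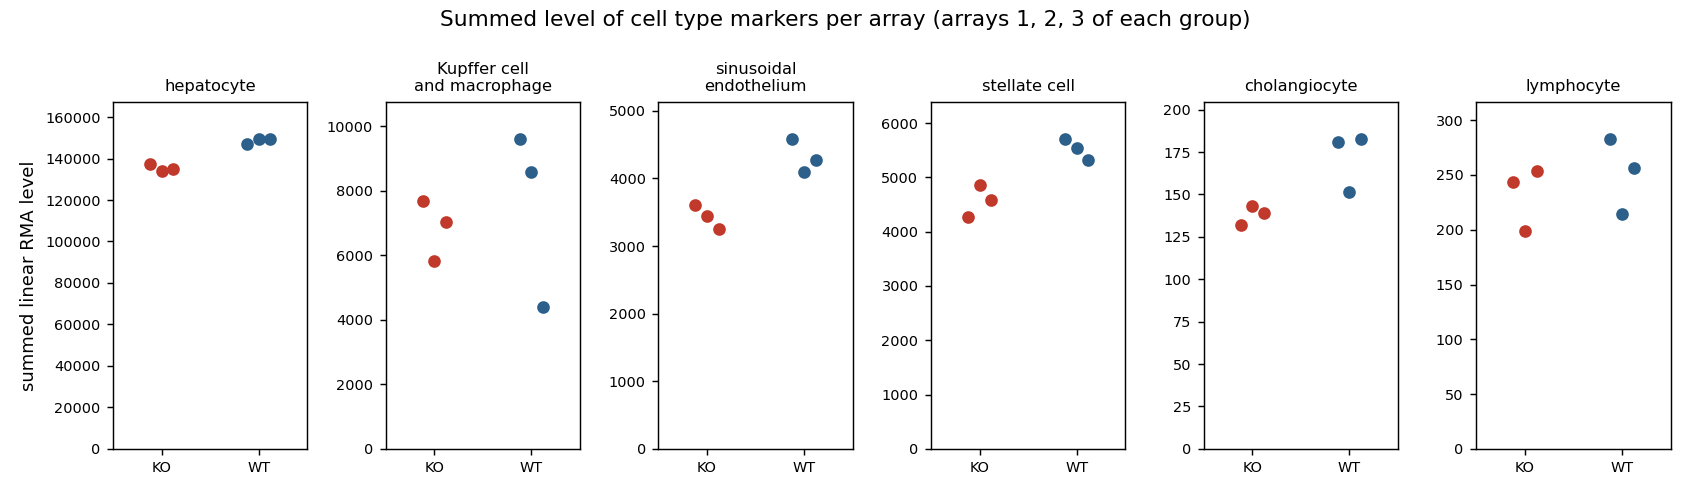
Summed linear RMA level (y axis, from 0) of the markers of 6 cell types on each array, with 3 KO points left of 3 WT points in each panel. On the deposited scale KO sums lie below all WT sums for hepatocyte, endothelial, stellate and cholangiocyte markers and overlap them for Kupffer cell and lymphocyte markers.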

How the data were processed

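The authors deposited a log2 level for each probe set and array. Per the submitters' processing notes these come from RMA, of unstated version, which corrects background, quantile-normalizes the probes and summarises them. RNA was extracted with Trizol and labelled with biotin, per the labels' protocols. The range of the values, 2.15 to 14.90, is what places them on a log2 scale. RMA drives the arrays towards one distribution, so levels are relative, and differences of dim probe sets are compressed.

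The sample titles gave each group and replicate number. Of 45101 probe sets 34945 have 1 gene symbol in the platform annotation of 2016, 932 have several, 9160 are unnamed here and 64 are controls. The brightest probe set on average stood for each gene, which gave 18193 genes. A two-sided limma 3.58.1 test (R 4.3.3, lmFit then eBayes with group as the only factor) was run over all of them with Benjamini-Hochberg adjustment and a threshold of 0.05, without a filter. Background was the 95th percentile (4.90) of the mean levels of 39 olfactory receptor genes. The alternatives were other normalizations (quantile, array median, 38 bacterial control probe sets), a background filter, another probe set per gene, eBayes with trend and robust options, array weights, a replicate block and leaving out each array.

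The genes, the lists around them and the tests were chosen with earlier results of these data known. The rule names the 8 genes, up to 4 called genes of largest difference in each pathway list and called or bright markers. The fit was tested on simulated data for the KO against WT comparison over 18193 genes, with gene-wise spread as measured. It called 18.3% of 60 true log2 changes of 0.5, 87.1% of 62 changes of 1 and 97.4% of 78 changes of 2. These true changes were far fewer than the 4363 genes called on the real arrays. The adjusted p of a gene depends on how many others change, so the recovered shares may understate those of the real comparison. A gene that did not pass may still have changed. The number of arrays limits the precision. Promoter sequences are those of RefSeq for GRCm38.p6.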

Additional observations from a re-analysis of the deposited data

How the results depend on the processing

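Centring on the bacterial controls turned Abca1 to 0.37, Lipg to 0.11, Pltp to 0.21 and Mttp to 0.030, left Lcat at -0.021 (adjusted p = 0.874, limma) and Lrp1 at -0.23 (0.147), and gave 2 of the 8 genes as higher and 1 as lower, with 12970 genes higher and 409 lower over the array. This setting adds the same 0.51 to every difference. Lrp1 stood at 0.12 with the probe set of highest variance and at -0.32 with the mean of its probe sets. Abcg1 did not pass with quantile normalization (0.24), the mean of its probe sets (0.18), the probe set of highest variance (0.38) or the replicate block (0.38, adjusted p = 0.0813), so that 0 of the 8 genes were higher there by limma. The cause of these changes was not tested, apart from the shift that centring adds by construction.

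Leaving out 1 array at a time gave ranges of -1.11 to -0.91 for Scarb1, -0.58 to -0.45 for Lcat, -0.51 to -0.45 for Mttp, -0.81 to -0.65 for Lrp1, 0.29 to 0.43 for Abcg1, -0.20 to -0.09 for Abca1, -0.72 to -0.11 for Lipg and -0.62 to -0.075 for Pltp. It left 4 to 5 of the 8 genes lower and 0 to 1 higher, and 1497 to 2424 genes higher and 888 to 1679 lower over the array, the lowest counts being those without KO replicate 2. Scarb1 kept its direction and call under all 15 alternatives. Of 180 counts of the pathway lists under these alternatives 142 stayed within 1.5 times the value as reported.

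Deviations of same-numbered KO and WT arrays from their group means correlated at 0.10, -0.02 and 0.11. Pairs of different number ran from -0.19 to 0.12, the highest being KO replicate 2 with WT replicate 1. Whether the replicate numbers pair the livers cannot be decided from these values, since the few deviations within a group are tied to one another by their shared mean. With the replicate block 2471 genes were higher and 1618 lower, and among the 8 genes it changed the call of Abcg1 and of no other gene.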
